A study of Mus musculus with 12 samples.

Results

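The genes described here were 35 genes of the endoplasmic reticulum (ER) chaperone and stress machinery, chosen by name out of the 49315 genes of a mouse RNA-seq count table. They were chosen with earlier results of these data known. All 35 were found by symbol in the GRCm38 annotation, and all 35 passed the filter on low counts in each comparison. By role they comprised 3 luminal chaperones of the HSP70 and HSP90 families, 4 co-chaperones, 2 stress-induced secreted factors, 3 protein disulfide isomerases, 2 lectin chaperones and 5 genes of ER-associated degradation. The rest were 5 stress sensors and transcription factors, 7 genes of the translocon and its associated proteins, 3 signal peptidase subunits and Mzb1, an ER co-chaperone of the B lineage.

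Proteins bound for secretion or for membranes enter the ER through the SEC61 channel, lose their signal peptide and fold with the help of chaperones such as BiP (encoded by Hspa5), GRP94 (Hsp90b1), calnexin (Canx) and calreticulin (Calr). When unfolded proteins accumulate, the sensors ATF6, IRE1 (Ern1) and PERK (Eif2ak3) start the unfolded protein response. ATF6 and the transcription factor XBP1, made active by IRE1, raise transcription of chaperone, degradation and translocation genes, whereas PERK acts on translation and, through ATF4 and CHOP (Ddit3), on amino acid supply and cell death. In lymphocytes this machinery is best known from plasma cells, which secrete antibody, and T cells engage it upon activation.

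The libraries were made from splenic T cells of 4 groups of 3 mice, all males of 12 weeks of age when the infusion began. The paper lists C57BL/6 mice from a supplier and, in other experiments, WT littermates of the miR-214-/- mice. It does not state which were the WT mice of these libraries. The miR-214-/- mice lacked the microRNA miR-214 in every tissue, not in T cells alone. They were backcrossed to a C57BL/6 N background for cell transfer experiments, and their background here is not stated. Each genotype was infused for 14 days by osmotic minipump, either with buffer (sham, 0 ng/kg/d) or with the pressor peptide angiotensin II (Ang II, 490 ng/kg/d). For other experiments the paper describes isolation of splenic T cells by negative selection, which removes other cells. Its RNA-seq section does not repeat the method. Negative selection uses no marker of T cells themselves to collect them, and RNA of retained cells would be counted with theirs. Each library is taken as 1 mouse, so the spread given below is between mice.

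Each library held between 21126874 and 29605988 counted reads. The Mir214 row held 0 counts in all 12 libraries and its host transcript Dnm3os 1 count in all, so these poly(A) libraries did not check the deletion. The T cell genes Cd3d, Cd3e, Cd3g, Cd247, Cd2, Cd5, Lck, Lat, Zap70 and Cd28 were detected in every library. Libraries differed in reads of other cells: the summed CPM (counts scaled to the library total) of 11 red-cell precursor genes reached 5854 in WT Ang II library 1 and 4762 in miR-214-/- Ang II library 2, against 353 to 2632 in the other libraries. In these bulk samples, fewer cells of a type and less RNA per cell cannot be told apart.

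Promoter sequences are shown for the members that carry the ER stress response element (ERSE), the best known DNA element of chaperone induction, because the responses are set against that element below. RefSeq promoter windows (GRCm38.p6, 250 bases before to 50 after the start of transcription) were at hand for 28 of the 35 genes, not for Hyou1, Manf, Atf6, Sec61a1, Ssr2, Sec11c and Mzb1. ERSE was searched as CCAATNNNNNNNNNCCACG on both strands. It was present in 8 of the 28 windows (28.6%) and in 0.137% of the windows of 27025 genes. The element is known from chaperone genes and the 35 genes were chosen for that machinery, so this contrast is not an independent finding. Capitals mark the conserved ends of the element, with 10 bases of flank on each side, and each line is written 5′ to 3′ along the gene's own strand.
Hspa5 (chr2:34772015-34772053, plus strand): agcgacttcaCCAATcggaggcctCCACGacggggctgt
Hsp90b1, upstream copy (chr10:86705628-86705666, minus strand): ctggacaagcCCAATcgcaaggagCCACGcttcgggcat
Hsp90b1, downstream copy, reversed (chr10:86705523-86705561, minus strand): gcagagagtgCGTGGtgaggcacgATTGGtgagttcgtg
Dnajc3 (chr14:118937817-118937855, plus strand): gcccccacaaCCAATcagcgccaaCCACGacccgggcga
Creld2, reversed (chr15:88819510-88819548, plus strand): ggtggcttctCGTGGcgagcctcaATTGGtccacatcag
Pdia6 (chr12:17266481-17266519, plus strand): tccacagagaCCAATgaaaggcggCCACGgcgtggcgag
Calr, reversed (chr8:84847065-84847103, minus strand): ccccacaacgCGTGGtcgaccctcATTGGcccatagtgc
Canx (chr11:50325790-50325828, minus strand): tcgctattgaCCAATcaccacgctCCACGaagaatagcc
Syvn1 (chr19:6046522-6046560, plus strand): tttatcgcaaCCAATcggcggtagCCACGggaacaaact

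The shorter form of the element, ERSE-II (ATTGGNCCACG), was present in 2 of the 28 windows and in 0.0444% of the windows of all genes, a contrast with the same limit. Herpud1, whose protein helps to extract misfolded proteins from the ER, held it upstream of the start, and Dnajb11, a co-chaperone of BiP, held it 7 to 17 bases past the start. The ATF6 and XBP1 element TGACGTGG was in 0 of the 28 windows, against 0.714% of the windows of all genes. The ATF4 element searched, TTGCATCA, was in 1 of the 28, again Herpud1, against 1.03%. The Herpud1 elements are shown with their flanks because they are the ones that this gene holds in place of ERSE.
Herpud1, ERSE-II (chr8:94386367-94386397, plus strand): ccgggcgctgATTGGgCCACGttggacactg
Herpud1, ATF4 element (chr8:94386307-94386334, plus strand): ccacggcgggTTGCATCAgcccgcaccc
These are matches of letters, and nothing in the counts shows whether a factor was bound there. The same sequence can be present outside these windows.

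**Figure D1:**
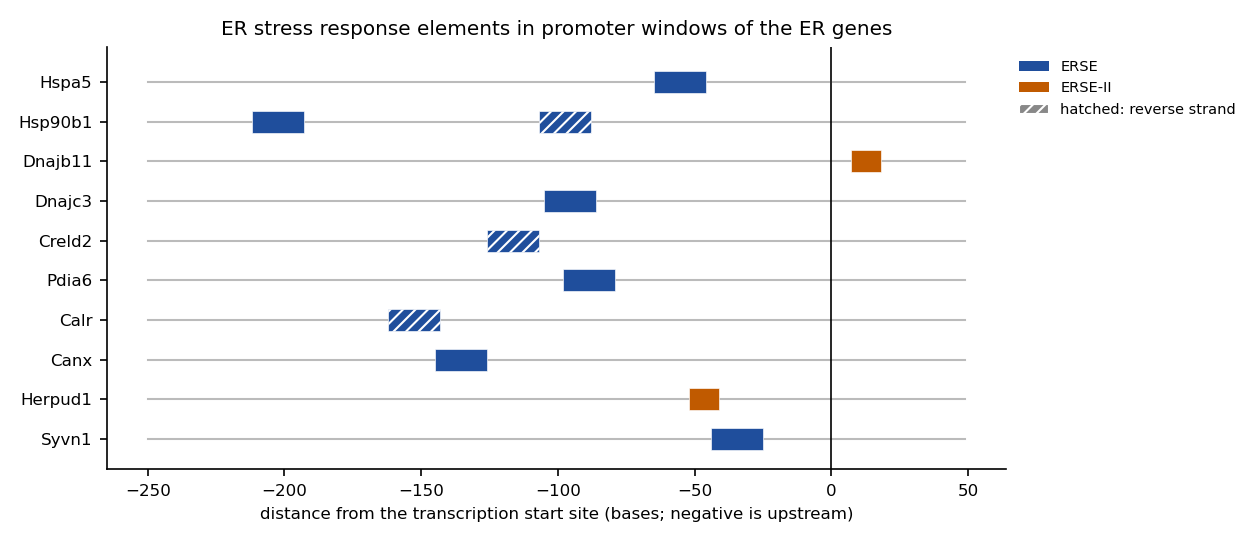
Positions of ERSE and ERSE-II in the promoter windows of the 10 genes that hold either, in bases from the start of transcription (vertical line), with hatched boxes on the reverse strand. Hsp90b1 holds 2 copies of ERSE, and Dnajb11 is the gene whose match lies past the start.

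The deleted microRNA is shown for its seed, bases 2 to 8, in capitals, as RefSeq lists it at chr1:162223438-162223459 on the plus strand.
miR-214-3p: aCAGCAGGcacagacaggcagu
The complement of the seed, CCTGCTG, was present in an annotated 3′ UTR of 9 of the 35 genes (25.7%), namely Dnajc3, Sdf2l1, Manf, Pdia6, Sel1l, Atf6, Ern1, Sec61a1 and Mzb1. Among 13101 tested genes with a 3′ UTR, 24.4% held it, so the share among the ER genes was near the background.

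In TPM, a level scaled to exon length and to the library, the 35 genes spanned a wide range. Calr, a calcium-binding lectin chaperone, had the highest median over the 12 libraries, 672 TPM with a range from 528 to 721 TPM. Hsp90b1 followed with a median of 444 TPM, and the disulfide isomerase gene Pdia3 (443 TPM) and Hspa5 (368 TPM) came next, with ranges of Hsp90b1, Pdia3 and Hspa5 that overlap. The sensors were the lowest, with medians of 23.2 TPM for Eif2ak3, 13.7 TPM for Ern1 and 10.2 TPM for Atf6. Mzb1 had the widest range as a ratio of highest to lowest, from 8.79 to 171 TPM, while Spcs2, a signal peptidase subunit, stayed between 114 and 128 TPM. Within groups the median coefficient of variation of the CPM over the 35 genes was 6.36% to 8.46%, and Mzb1 was the most variable in each group, at 57.7% to 83.5%.

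**Figure D2:**
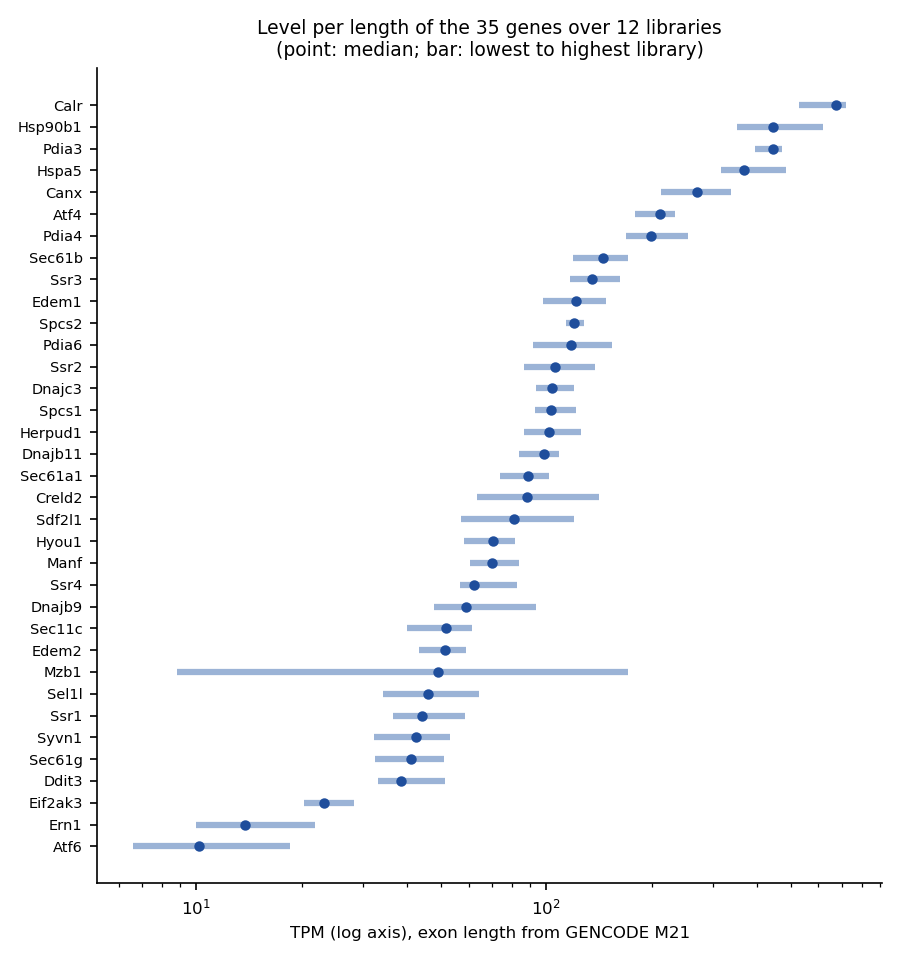
Level of each of the 35 genes in TPM on a log axis, as the median (point) and the lowest to highest of the 12 libraries (bar). Calr, Hsp90b1, Pdia3 and Hspa5 lead, the sensors Eif2ak3, Ern1 and Atf6 are lowest, and the bar of Mzb1 is the widest on this log axis.

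In WT mice, Ang II was followed by higher counts of 3 of the 4 genes of the translocon-associated protein complex (Ssr1, Ssr2 and Ssr3), of the sensors Atf6 and Ern1 and of some chaperones. Between WT Ang II and WT sham, 9 of the 35 genes rose past an adjusted p of 0.05 and 0 fell (edgeR quasi-likelihood test, Benjamini-Hochberg over 16012 genes). Over all genes tested 11.7% rose and 7.06% fell. An unadjusted p under 0.05 was given to 20 of the 35 and to 35.6% of all genes. The 9 were Atf6 (chr1:170704674-170867771, minus strand), Ern1 (chr11:106394650-106487852, minus), Ssr1 (chr13:37966605-37994217, minus), Ssr2 (chr3:88575876-88588419, plus), Ssr3 (chr3:65379655-65392623, minus), Pdia6 (chr12:17266545-17284770, plus), Canx (chr11:50293961-50325673, minus), Sdf2l1 (chr16:17130138-17132383, minus) and Manf (chr9:106838312-106891979, minus), as protein-coding genes of GRCm38. One of them, Atf6, rose by more than 1 on the log2 scale, as did 7.01% of all genes. The median log2 fold change was 0.26 over the 35 genes and -0.02 over all genes, and 32 of the 35 values were above 0, as were 48.4% of all. For 17 of the 35 genes each WT Ang II library lay above each WT sham library, and for 0 each lay below, where all genes gave 19.1% and 22.0%.

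The number of calls rested on single libraries, among the 35 genes as among all genes. Without WT sham library 1, 4 of the 35 passed, and 6.85% of all genes were called in either direction. Leaving out WT sham library 3 or WT Ang II library 3 left 5, with 8.22% and 5.70% of all genes, whereas 15 passed without WT Ang II library 1, with 21.8% of all genes. Without WT sham library 2 or WT Ang II library 2, 9 and 7 passed, with 9.64% and 11.5% of all genes. Atf6, Ern1, Ssr1 and Ssr3 passed whichever of the 6 libraries was left out. DESeq2 called 14 of the 35, with Hsp90b1, Sec61a1, Sec61g (adjusted p = 0.0330), Sel1l (0.0366) and Creld2 (0.0319) added to the 9. It called 3711 of the 28524 genes with any count (13.0%). The shares given for DESeq2 include genes too low for the edgeR filter, so they cannot be set directly beside the edgeR shares.

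In miR-214-/- mice, 0 of the 35 genes passed between Ang II and sham (edgeR, 15937 genes, background 0%), and 4 had an unadjusted p under 0.05, where 12.2% of all genes did. DESeq2 called 1 of the 35, Dnajb9, and 0.976% of the 28393 genes with any count. The median log2 fold change was 0.03 over the 35 genes and 0.03 over all genes, with 21 values above 0. Each Ang II library lay above each sham library for 2 genes and below for 4, against 8.86% and 10.5% of all genes.

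**Figure D3:**
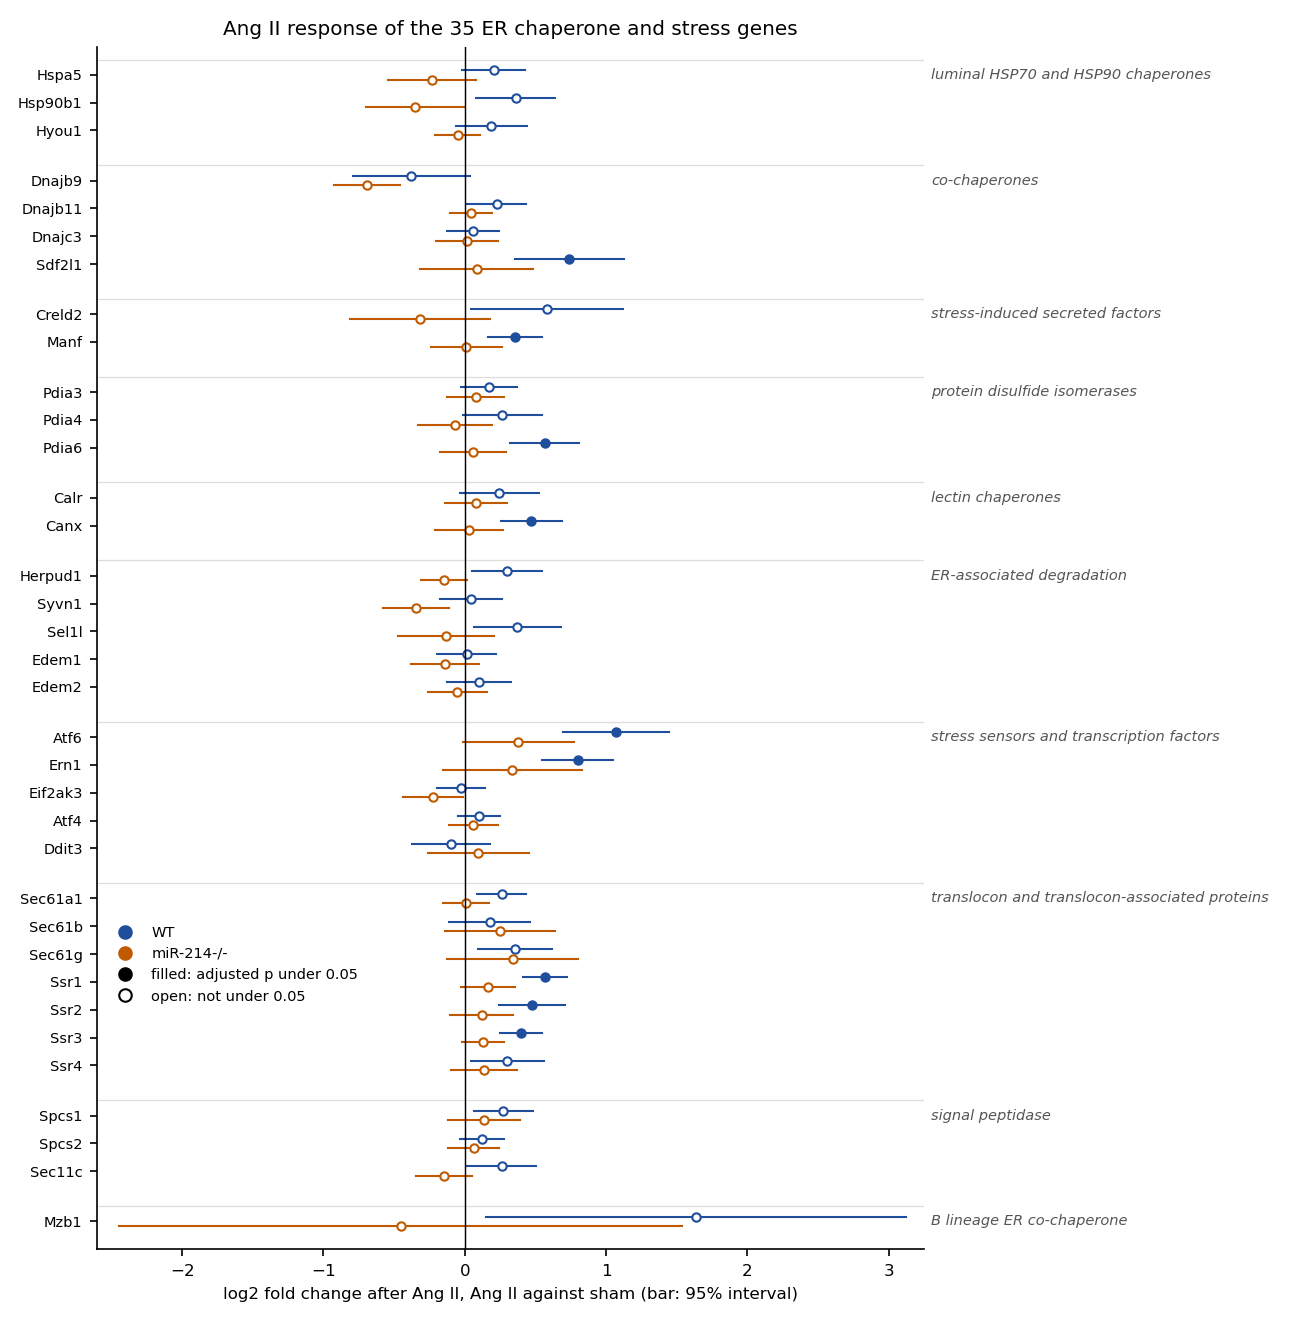
Log2 fold change of each of the 35 genes after Ang II, with its 95% interval, in WT (blue) and miR-214-/- mice (orange), ordered by role, with filled points where the adjusted p of edgeR was under 0.05. The 9 filled points are all in WT, led by Atf6 at 1.07, and the interval of Mzb1 is the widest in both genotypes.

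Among the luminal chaperones none of the 3 genes passed in WT. Hspa5 was at 454, 521 and 451 CPM in the WT sham libraries and at 513, 527 and 579 CPM in the WT Ang II libraries, so the groups overlapped (log2 fold change 0.20, SE 0.09, adjusted p = 0.165 by edgeR). The miR-214-/- libraries held 448, 539.9 and 609.7 CPM after sham and 452, 479.8 and 425 CPM after Ang II (-0.23, SE 0.13, adjusted p = 0.512). Hspa5 encodes the chaperone that also holds the sensors inactive, and its groups overlapped in both genotypes. Hsp90b1 was at 465, 579.7 and 499 CPM in WT sham and at 623, 603 and 726 CPM in WT Ang II libraries, with no overlap (0.36, SE 0.12, adjusted p = 0.0753 by edgeR, 0.0217 by DESeq2). The order in miR-214-/- mice was the other way round, with 514, 678 and 745 CPM after sham and 509, 509 and 491 CPM after Ang II (-0.35, SE 0.15, adjusted p = 0.406). Hsp90b1 shares exon sequence with another annotated gene on its strand, as do Manf, Pdia4, Ddit3 and Mzb1, and reads of such partners could be divided differently by another counting. Hyou1, a large HSP70-like exchange factor, had log2 fold changes of 0.19 in WT and -0.05 in miR-214-/- mice and passed in neither.

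Of the co-chaperones, Sdf2l1, which acts with BiP on folding clients, rose in WT. It was at 19.0, 28.3 and 24.0 CPM in WT sham and at 42.5, 34.8 and 39.8 CPM in WT Ang II libraries, which do not overlap (log2 fold change 0.74, SE 0.16, adjusted p = 0.0244 by edgeR). Its call was lost without WT sham library 1, WT sham library 3 or WT Ang II library 3, with log2 fold changes from 0.60 to 0.89 over the 6 libraries left out in turn. The miR-214-/- libraries held 21.7, 26.0 and 30.1 CPM after sham and 32.1, 26.7 and 23.3 CPM after Ang II, which overlap.

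Dnajb9, a J-protein that represses IRE1 through BiP, had a lower mean after Ang II in both genotypes and passed by edgeR in neither. Its values were 71.9, 59.2 and 44.4 CPM in WT sham and 39.7, 47.2 and 46.3 CPM in WT Ang II libraries (log2 fold change -0.38, SE 0.18, adjusted p = 0.17 by edgeR). Those of miR-214-/- mice were 60.5, 61.5 and 70.1 CPM after sham and 36.6, 43.8 and 37.9 CPM after Ang II (-0.69, SE 0.10, adjusted p = 0.208 by edgeR, 8.5e-05 by DESeq2). The WT groups overlapped, whereas the miR-214-/- groups stood well apart. The edgeR value in miR-214-/- mice missed the threshold where no gene of the 15937 passed it. Dnajb11 and Dnajc3, the other co-chaperones, had values of 0.23 and 0.06 in WT and of 0.05 and 0.02 in miR-214-/- mice.

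Both stress-induced secreted factors were higher after Ang II in WT, and Manf, a neurotrophic factor held in the ER until stress, passed the test. It was at 64.0, 71.9 and 77.6 CPM in WT sham and at 89.2, 88.3 and 91.7 CPM in WT Ang II libraries (log2 fold change 0.36, SE 0.08, adjusted p = 0.0262 by edgeR). After sham the miR-214-/- libraries held 70.3, 76.0 and 82.2 CPM, and after Ang II 79.5, 83.3 and 66.3 CPM (0.01, SE 0.11, adjusted p = 0.979). The WT groups did not overlap and the miR-214-/- groups did. Manf lost its call when any of WT sham libraries 1 and 2 and WT Ang II libraries 2 and 3 was left out, with log2 fold changes from 0.28 to 0.42. Manf held at most 2537 counts in a library. It shares exon sequence with Rbm15b on its strand (at most 2396 counts) and with Dcaf1 on the other (at most 2689 counts). Its counts could therefore change with the counting. Creld2, a secreted disulfide isomerase, had a log2 fold change of 0.58 in WT (SE 0.23, adjusted p = 0.118) and of -0.32 in miR-214-/- mice.

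Among the disulfide isomerases, which form and shuffle disulfide bonds, Pdia6 rose in WT. It was at 103, 124 and 114 CPM in WT sham and at 166, 149.5 and 180.5 CPM in WT Ang II libraries, with no overlap (log2 fold change 0.57, SE 0.10, adjusted p = 0.0139 by edgeR). The miR-214-/- libraries held 116, 136 and 141 CPM after sham and 147, 131 and 128 CPM after Ang II, which overlap (0.06, SE 0.10, adjusted p = 0.837). Without WT sham library 1 or WT sham library 3 the WT call was lost, with log2 fold changes of 0.49 to 0.63 over all 6. Pdia3 and Pdia4 did not overlap between the WT groups either, yet at log2 fold changes of 0.17 and 0.26 they did not pass.

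Of the lectin chaperones, which bind glycoproteins in the folding cycle, Canx rose in WT. Its values were 309.5, 357 and 350.1 CPM in WT sham and 422, 471 and 495 CPM in WT Ang II libraries (log2 fold change 0.47, SE 0.09, adjusted p = 0.0166 by edgeR). The miR-214-/- values were 346, 390.0 and 388 CPM after sham and 417, 358 and 369 CPM after Ang II (0.03, SE 0.10, adjusted p = 0.921). Canx did not overlap between the WT groups, and its call was lost without WT sham library 1, WT sham library 3 or WT Ang II library 3, with log2 fold changes from 0.41 to 0.53. Calr, with a log2 fold change of 0.24, did not pass.

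None of the 5 degradation genes passed in either genotype. In WT the 5 values were all above 0 (median 0.10, from 0.01 for Edem1 to 0.37 for Sel1l) and in miR-214-/- mice all below (median -0.14, from -0.34 for Syvn1 to -0.05 for Edem2). In WT the sign of Edem1 and of Syvn1 did not hold when 1 library was left out (lowest values -0.071 and -0.012). Herpud1 was at 70.4, 74.0 and 65.1 CPM in WT sham and at 72.8, 89.6 and 91.7 CPM in WT Ang II libraries (log2 fold change 0.30, SE 0.10, adjusted p = 0.0867 by edgeR). It was at 77.6, 76.1 and 80.4 CPM in miR-214-/- sham and at 65.8, 74.7 and 70.3 CPM in miR-214-/- Ang II libraries (-0.15, SE 0.07, adjusted p = 0.446). Its WT groups overlapped through 1 Ang II library and its miR-214-/- groups did not. Syvn1, the ubiquitin ligase of the degradation complex, was at 60.0, 70.6 and 77.2 CPM in miR-214-/- sham and at 53.6, 56.1 and 53.5 CPM in miR-214-/- Ang II libraries (-0.34, SE 0.10, adjusted p = 0.298). In WT it was at 62.5, 66.0 and 65.8 CPM after sham and at 57.2, 69.9 and 70.3 CPM after Ang II, which overlap. Sel1l, the scaffold of the same complex, was between 102 and 171 CPM over the 12 libraries, with its highest value in WT Ang II library 3.

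Of the 5 sensor and transcription factor genes, 2 rose in WT, Atf6 and Ern1. Atf6 was at 26.7, 22.5 and 19.6 CPM in WT sham and at 48.5, 40.4 and 53.3 CPM in WT Ang II libraries, with no overlap (log2 fold change 1.07, 2.10-fold, SE 0.16, adjusted p = 0.00758 by edgeR). The miR-214-/- values were 21.9, 27.4 and 29.0 CPM after sham and 40.3, 32.2 and 28.8 CPM after Ang II (0.38, SE 0.17, adjusted p = 0.418). Atf6 had the largest rise that passed among the 35 genes, and the miR-214-/- groups overlapped by a narrow margin. Ern1 was at 27.8, 31.7 and 26.3 CPM in WT sham and at 51.4, 45.6 and 50.1 CPM in WT Ang II libraries (0.80, 1.74-fold, SE 0.11, adjusted p = 0.00546 by edgeR). In miR-214-/- mice it was at 27.9, 32.5 and 35.7 CPM after sham and at 53.6, 32.5 and 34.6 CPM after Ang II (0.34, SE 0.21, adjusted p = 0.540). Here 1 miR-214-/- Ang II library, number 1, was at the level of the WT Ang II libraries, and the other two were within the sham range.

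The PERK arm gave no call. Eif2ak3 was at 45.2, 47.0 and 44.3 CPM in WT sham and at 45.5, 44.1 and 42.2 CPM in WT Ang II libraries (log2 fold change -0.03, 95% interval from -0.20 to 0.14). For miR-214-/- mice it was at 43.5, 50.8 and 49.6 CPM after sham and at 39.2, 44.0 and 39.5 CPM after Ang II (-0.22, SE 0.09, adjusted p = 0.400 by edgeR). Both pairs of groups overlapped. Atf4, the transcription factor made upon PERK activation, was at 149 to 155 CPM in WT sham and at 150.1 to 166 CPM in WT Ang II libraries (0.10, interval from -0.05 to 0.25), and was at 145 to 165 CPM over the 6 miR-214-/- libraries. Ddit3, which encodes the death-promoting factor CHOP, was at 19.8, 23.1 and 20.4 CPM in WT sham and at 18.1, 21.6 and 18.6 CPM in WT Ang II libraries (-0.10, interval from -0.38 to 0.18). Its miR-214-/- values were 18.9, 22.9 and 21.7 CPM after sham and 26.5, 21.5 and 19.6 CPM after Ang II. For Atf4 and Ddit3 as for Eif2ak3 the groups overlapped in both genotypes. PERK and ATF4 are controlled largely after transcription, and mRNA levels do not measure their activity.

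The translocon genes were the role with the most calls, 3 of 7 in WT, where 11.7% of all genes rose. All 7 had values above 0 in both genotypes (median 0.36 in WT and 0.14 in miR-214-/- mice). Over all genes 48.4% were above 0 in WT and 54.5% in miR-214-/- mice. In miR-214-/- mice 0 of the 7 passed, as 0% of all genes did, and the lowest value was 0.007. Ssr1, Ssr2, Ssr3 and Ssr4 encode the translocon-associated protein complex, which aids entry of some signal peptides. Ssr1 was at 122, 125 and 123 CPM in WT sham and at 173, 175 and 191 CPM in WT Ang II libraries (log2 fold change 0.57, 1.48-fold, SE 0.07, adjusted p = 0.00376 by edgeR). It was at 132, 138 and 138 CPM in miR-214-/- sham and at 162, 139 and 154 CPM in miR-214-/- Ang II libraries (0.16, SE 0.08, adjusted p = 0.454). Ssr1 had the smallest p of the 35 genes, and its groups did not overlap in either genotype. Ssr3 was at 155, 154 and 158 CPM in WT sham, 198, 196 and 211 CPM in WT Ang II, 165, 169 and 168 CPM in miR-214-/- sham and 182, 185 and 179.6 CPM in miR-214-/- Ang II libraries. It rose in WT (0.40, SE 0.06, adjusted p = 0.00895), and at 0.13 (SE 0.06, adjusted p = 0.457) it did not pass in miR-214-/- mice, though those groups did not overlap. Ssr1 and Ssr3 were the 2 genes of the 35 whose miR-214-/- Ang II libraries all lay above the sham libraries. Over all genes 8.86% did so, and the 2 of 35 did not exceed that share.

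Ssr2 was at 48.5, 58.0 and 56.1 CPM in WT sham and at 67.4, 75.2 and 79.9 CPM in WT Ang II libraries (log2 fold change 0.48, SE 0.10, adjusted p = 0.0198 by edgeR). Its miR-214-/- values were 58.3, 62.7 and 59.4 CPM after sham and 71.9, 65.1 and 58.1 CPM after Ang II, which overlap (0.12, SE 0.10, adjusted p = 0.630). The WT call of Ssr2 was lost without WT sham library 1 or 3 or WT Ang II library 2 or 3, at log2 fold changes of 0.40 to 0.54. Sec61a1, the pore of the channel, was at 161, 175 and 181 CPM in WT sham and at 197, 197 and 214 CPM in WT Ang II libraries (0.26, SE 0.07). With an adjusted p of 0.0508 by edgeR it was the gene nearest to the threshold without passing it, and DESeq2 gave 0.0418. The miR-214-/- levels were 182, 178 and 189.5 CPM after sham and 181, 178 and 191 CPM after Ang II (0.01, SE 0.07, adjusted p = 0.977). The miR-214-/- groups overlapped. Sec61b, Sec61g and Ssr4 had log2 fold changes of 0.18, 0.36 and 0.30 in WT and did not pass by edgeR.

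The 3 signal peptidase genes, which cut the signal peptide, had log2 fold changes of 0.27 (Spcs1), 0.12 (Spcs2) and 0.26 (Sec11c) in WT, and none passed. Their miR-214-/- values lay between -0.15 (Sec11c) and 0.14 (Spcs1), and none passed there either.

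**Figure D4:**
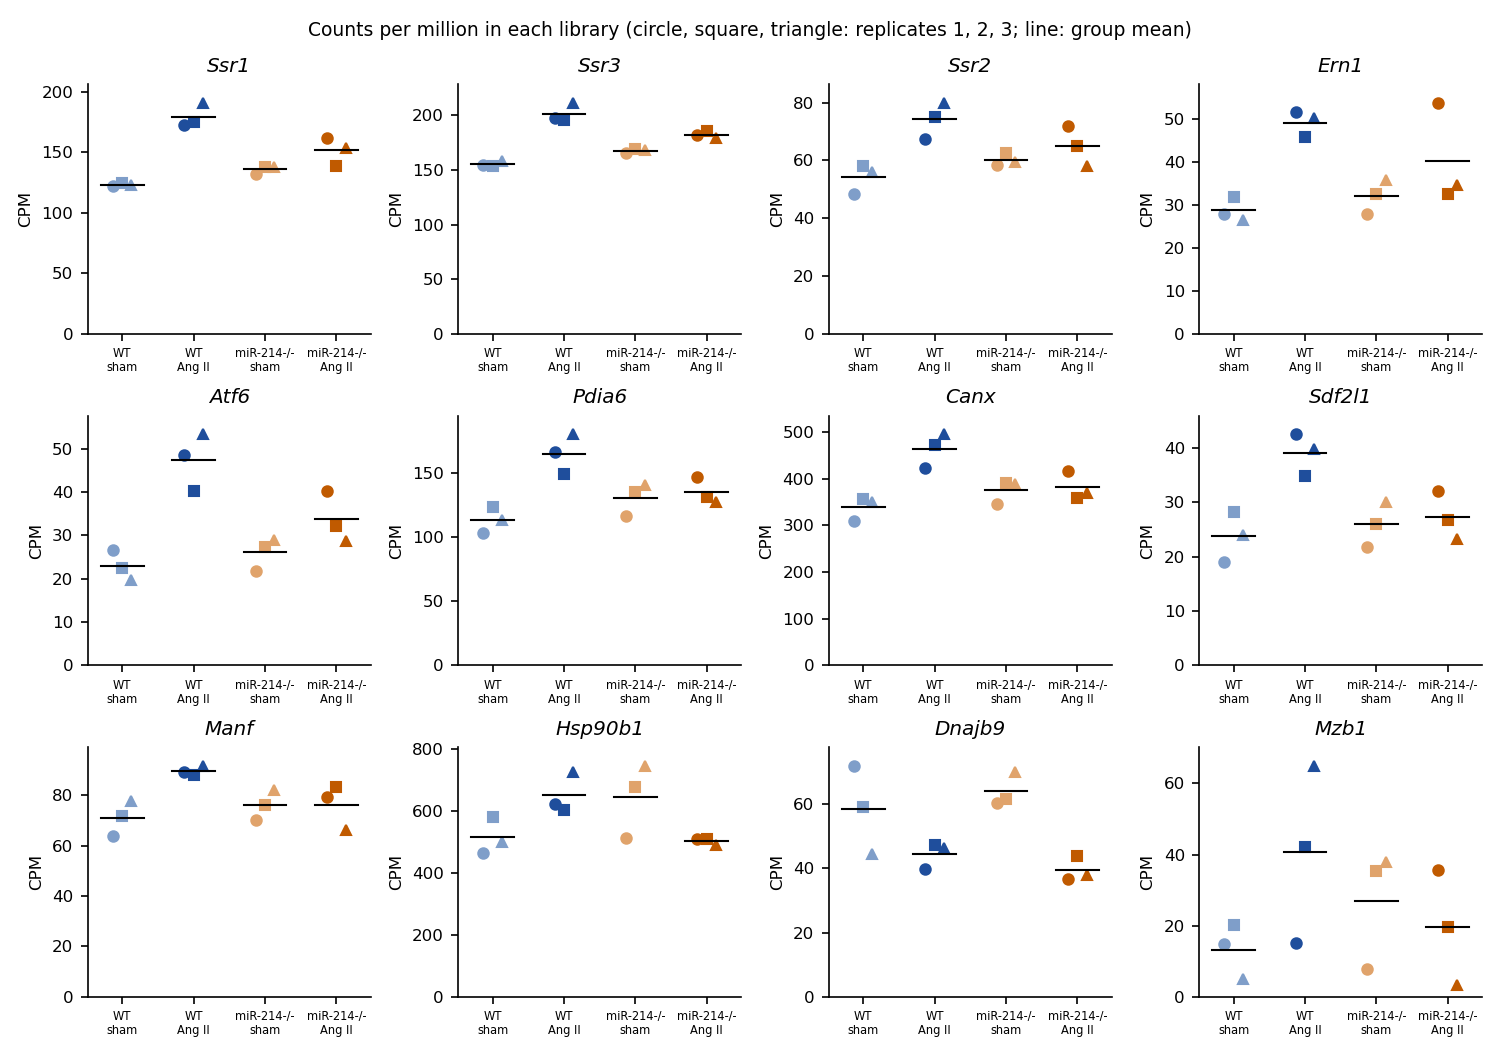
CPM of 12 of the genes in each of the 12 libraries, with a line at each group mean and the replicates as circle, square and triangle, each axis starting at 0. The WT Ang II points of Ssr1, Ssr3, Ssr2, Ern1, Atf6, Pdia6, Canx, Sdf2l1 and Manf all lie above the WT sham points, and those of Mzb1 are spread from 15.2 to 64.9 CPM.

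Mzb1 was at 14.8, 20.0 and 4.96 CPM in WT sham, 15.2, 42.1 and 64.9 CPM in WT Ang II, 7.89, 35.4 and 37.8 CPM in miR-214-/- sham and 35.8, 19.6 and 3.19 CPM in miR-214-/- Ang II libraries. The groups overlapped in both genotypes, and each group spread widely between mice. Its log2 fold change was 1.63 in WT (SE 0.63, adjusted p = 0.112 by edgeR) and -0.45 in miR-214-/- mice (SE 0.84, adjusted p = 0.847). Mzb1 serves antibody assembly in plasma cells and marginal zone B cells and is not a T cell gene.

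Between the genotypes after sham, 0 of the 35 genes passed (edgeR, 15913 genes, background 0.0251%), and 2, Ssr1 and Herpud1, had an unadjusted p under 0.05, where 6.67% of all genes did. DESeq2 also called 0 of the 35, and 0.333% of the 28210 genes with any count. The median log2 fold change was 0.10 against -0.01 over all genes, and 32 of the 35 values were above 0. The highest values were those of Mzb1 (1.02, SE 0.64), Creld2 (0.35, SE 0.21) and Hsp90b1 (0.32, SE 0.15). For 4 genes, Ssr1, Ssr2, Ssr3 and Herpud1, each miR-214-/- sham library lay above each WT sham library, against 5.39% of all genes. The largest of these differences was that of Herpud1, 0.16 (SE 0.07, adjusted p = 0.736). For 0 genes each miR-214-/- sham library lay below, against 4.79% of all genes.

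Between the genotypes after Ang II, 0 of the 35 genes passed (edgeR, 16215 genes, background 0%), and 11 had an unadjusted p under 0.05, where 8.56% of all genes did. DESeq2 called 0 of the 35 and 0.115% of the 28653 genes with any count. The median log2 fold change was -0.17, against 0.00 over all genes, and 33 of the 35 values were below 0. For 14 genes each miR-214-/- Ang II library lay below each WT Ang II library, where all genes gave 5.94%, and for 0 each lay above, where all genes gave 8.01%. The 3 with the smallest p were Sdf2l1 (-0.51, SE 0.15), Hsp90b1 (-0.37, SE 0.11) and Atf6 (-0.49, SE 0.17), each with an adjusted p of 0.569 by edgeR. This comparison uses the WT Ang II libraries that the WT response also uses, so both carry the same deviations of those 3 libraries.

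The difference between the responses was tested as the interaction of genotype and treatment over all 12 libraries, and 0 of the 35 genes passed (edgeR, 16770 genes, background 0.00596%). At an unadjusted p under 0.05 there were 16, where 14.8% of all genes passed that mark. DESeq2 called 3, Hsp90b1, Ssr1 and Ssr3, and 1.47% of the 30192 genes with any count. The median difference, miR-214-/- response minus WT response, was -0.30 on the log2 scale against 0.01 over all genes, with 33 of 35 below 0. Ssr1 had the smallest p (-0.39, SE 0.10, adjusted p = 0.213 by edgeR), followed by Hsp90b1 (-0.70, SE 0.19, adjusted p = 0.213) and Pdia6 (-0.49, SE 0.14, adjusted p = 0.220). Without miR-214-/- Ang II library 1, edgeR called 2 of the 35, Ern1 and Ssr1, and 5.35% of all genes, so that count was near the background. That the 9 genes passed in WT and not in miR-214-/- mice therefore does not by itself show that they responded differently.

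Reads of plasma cell genes differed widely between libraries and are given here beside the ER genes. Averaged over the 35 ER genes, log2 CPM was 6.41, 6.59 and 6.43 in WT sham, 6.70, 6.77 and 6.89 in WT Ang II, 6.46, 6.65 and 6.70 in miR-214-/- sham and 6.66, 6.61 and 6.42 in miR-214-/- Ang II libraries. The summed CPM of 15 plasma cell genes (immunoglobulin chains, Jchain, Sdc1, Prdm1, Irf4, Xbp1 and the receptors Tnfrsf17 and Tnfrsf13b) was 2158, 5761 and 1061 in WT sham and 4841, 11056 and 17493 in WT Ang II libraries. It was 1288, 8174 and 7499.9 in miR-214-/- sham and 9397, 2625 and 1632 in miR-214-/- Ang II libraries. In WT sham, WT Ang II and miR-214-/- Ang II mice the library with the most plasma cell reads also had the highest mean of the ER genes, and in miR-214-/- sham mice libraries 2 and 3 stood far above library 1 in both. Of the 35 genes, 26 were highest in that library among the WT sham libraries, as were 32.5% of 16770 genes, and 23 among the WT Ang II libraries, as were 24.6%. Among miR-214-/- libraries the counts were 8 after sham, against 32.5%, and 14 after Ang II, against 35.6%. Between groups the 2 measures did not always share an order. WT Ang II library 1 had a sum of 4841 CPM and an ER mean of 6.70, and miR-214-/- Ang II library 1 had 9397 CPM and 6.66. All 15 plasma cell genes were detected in each library, and 4 of the 15 rose in WT (median log2 fold change 1.58), where 11.7% of all genes rose. Their part in the ER gene values was not tested.

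**Figure D5:**
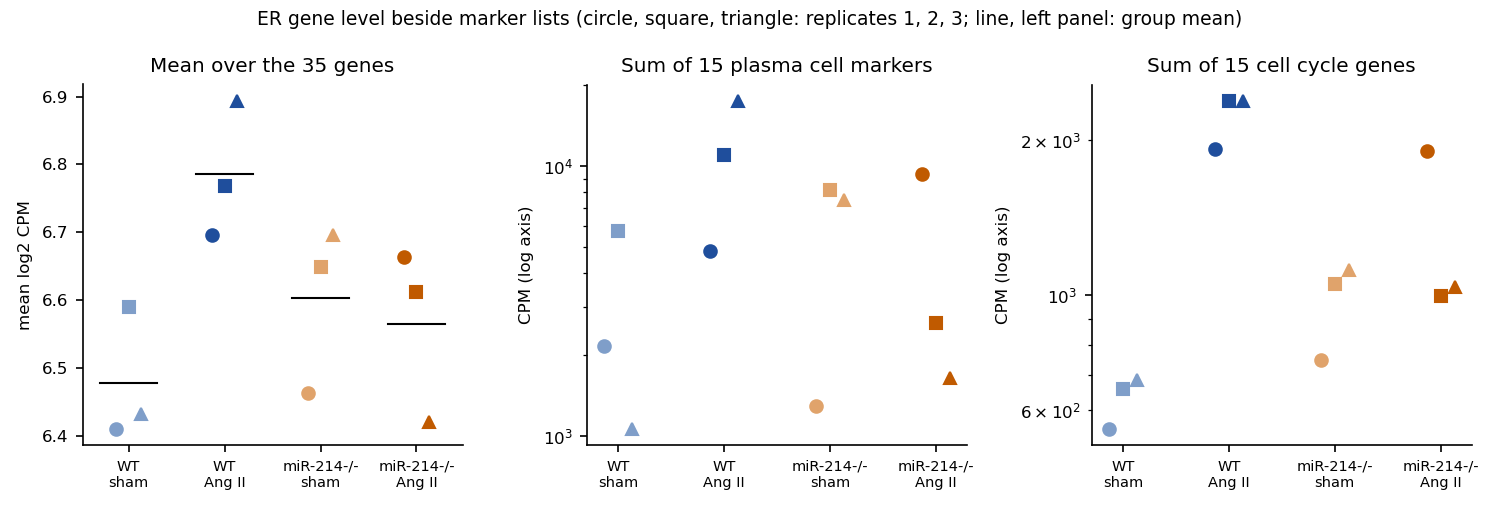
Mean log2 CPM of the 35 genes in each library with group means as lines (left), beside the summed CPM of 15 plasma cell genes (middle) and of 15 cell cycle genes (right), both on log axes. WT Ang II library 3 is the highest for the ER genes and for the plasma cell genes, and miR-214-/- Ang II library 1 lies at the WT Ang II level for the cell cycle genes.

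Other markers also moved with Ang II in WT, where 11.7% of all genes rose and 7.06% fell. These marker lists were chosen with earlier results of these data known, so the contrast with those shares is not an independent one. All 15 cell cycle genes rose (median log2 fold change 2.30), with sums of 552 to 685 CPM after sham and 1919.8 to 2377 CPM after Ang II. None of the 15 passed in miR-214-/- mice, with sums of 749 to 1121 CPM after sham and of 1901, 995 and 1039 CPM after Ang II, so library 1 alone lay near the WT Ang II level, as it did for Ern1. All 7 early granulocyte genes and all 8 neutrophil genes rose in WT, as did 6 of 11 red-cell precursor genes, 4 of 5 basophil and mast cell genes and 1 of 8 macrophage and monocyte genes. Neutrophil sums were 158 to 199 CPM after sham and 830.2 to 2967 CPM after Ang II, and early granulocyte sums 51.4 to 104 CPM and 385 to 685 CPM. In the same comparison 9 of 10 T cell genes fell (median -0.48), with sums of 3773 to 4361 CPM after sham and 2586 to 3015 CPM after Ang II. The 10 B cell genes and 4 tested NK cell genes gave no call, and none of these lists gave one in miR-214-/- mice. The B cell sums ranged from 63.9 to 526 CPM over the 12 libraries, the highest being that of miR-214-/- Ang II library 2. The part of these cells in the ER gene values was not tested.

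Further genes of the pathway, 89 on lists of the same functions, were read in the same way, and those named here beyond Asns, Pdia5, Txndc5 and Ppp1r15a were picked after their values were seen. In WT 86 were tested, 23 rose and 1 fell, where 11.7% of all genes rose and 7.06% fell. The median log2 fold change was 0.14, against -0.02 over all genes. In miR-214-/- mice 0 of 87 passed, where 0% of all genes did, and the median was 0.06, against 0.03. For the rises of each list that follows, 11.7% is likewise the share over all genes. Folding and glycoprotein quality control held 10 of the rises among 26 tested genes. They were led by the disulfide isomerase genes Pdia5 (1.27, SE 0.28, adjusted p = 0.0247 by edgeR, at a mean of 3.02 CPM after Ang II) and Txndc5 (0.93, SE 0.21, adjusted p = 0.0262) and by the cargo receptor gene Lman1 (0.76, SE 0.12, adjusted p = 0.00858). P4hb, a further disulfide isomerase gene, rose by 0.56 (SE 0.10, adjusted p = 0.0147). Of 24 other translocation and glycosylation genes 6 rose, among them Spcs3, a signal peptidase subunit (0.46, SE 0.10), and the oligosaccharyltransferase genes Rpn1 (0.49, SE 0.12) and Stt3a (0.42, SE 0.08). Of 15 other degradation genes 3 rose, among them Vcp, the ATPase that pulls clients from the ER (0.38, SE 0.09).

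Stress signalling showed values in both directions in WT, with 4 rises and 1 fall among 21 tested genes, where all genes gave 11.7% and 7.06%. Xbp1, the target of IRE1 and also on the plasma cell list, rose from 68.1, 91.0 and 55.9 CPM to 104, 116 and 174 CPM (log2 fold change 0.90, SE 0.25, adjusted p = 0.0466 by edgeR). Asns, an asparagine synthetase gene under ATF4, rose by 1.67 (SE 0.42, adjusted p = 0.0356), and Sesn2 and Nfe2l2, of stress and antioxidant responses, rose by 0.47 and 0.35. Ppp1r15a, the phosphatase subunit that ends PERK signalling, fell by 0.61 (SE 0.16, adjusted p = 0.0375). Trib3, a further gene under ATF4, had a value of -0.71 (SE 0.28, adjusted p = 0.123).

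Set against the promoter elements shown above, the 10 genes with ERSE or ERSE-II had a median log2 fold change of 0.27 in WT, with all 10 values above 0 and 2 called, Pdia6 and Canx. The 18 genes with a window and neither element had a median of 0.22, with 15 above 0 and 4 called. All these calls were rises, and 11.7% of all genes rose. Medians in miR-214-/- mice were -0.07 and 0.08, with 5 of 10 and 12 of 18 above 0. Those 4 were Ssr1, Ssr3, Sdf2l1 and Ern1. The difference between the sets was not tested.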

How the data were processed

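Splenic T cells of 12 mice were profiled by poly(A) RNA-seq, 3 libraries in each of 4 groups taken from the labels. The authors trimmed reads, aligned them to GRCm38 with STAR and deposited raw read counts per gene made with featureCounts (Subread 1.5.2); strand setting and annotation release are not given in the sources used here. Genes were named with GENCODE M21 (49056 of 49315 matched). No column was left unused. The 35 genes and all lists were chosen with earlier results of these data known.

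Each comparison of 3 against 3 libraries was fitted over the whole table with edgeR 4.0.16 (R 4.3.3; quasi-likelihood, TMM, filterByExpr), with Benjamini-Hochberg adjustment and a threshold of 0.05. The interaction was fitted over 12 libraries. CPM were scaled by TMM over all libraries, and TPM used exon length. SE is the log2 fold change divided by the square root of F. DESeq2 1.42.0, other scalings and filters, a replicate block and libraries left out were alternatives. The fits were tested on simulated counts. Values per library are given for the 10 genes of smallest p in WT, 5 in miR-214-/- mice, 3 in each other comparison, and Hspa5, Atf4, Ddit3, Ern1 and Mzb1, and the 3 largest rises and falls past the threshold among other pathway genes are named. None of the 12 replicate pairs was identical. Of the 35 genes, 13 share exon sequence with another annotated gene, 5 of them on the same strand.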

Additional observations from a re-analysis of the deposited data

Results flagged for a closer look

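Hsp90b1, the gene of the luminal HSP90 chaperone GRP94, had values on opposite sides of sham in the 2 genotypes, although neither response passed by edgeR (adjusted p = 0.0753 in WT and 0.406 in miR-214-/- mice). By DESeq2 the WT response passed (0.0217) and the miR-214-/- response did not (0.233). Each WT Ang II library (623, 603 and 726 CPM) lay above each WT sham library (465, 579.7 and 499 CPM), and each miR-214-/- Ang II library (509, 509 and 491 CPM) lay below each miR-214-/- sham library (514, 678 and 745 CPM), by a narrow margin between the nearest libraries, at 509 and 514 CPM. The miR-214-/- response minus the WT response was -0.70 on the log2 scale (SE 0.19, adjusted p = 0.213 by edgeR over 16770 genes). DESeq2 gave an adjusted p of 0.0212 for the same difference, and it called 1.47% of the 30192 genes with any count there. Hsp90b1 was the only one of the 35 genes whose libraries separated fully in both genotypes and in opposite directions. Values of opposite sign alone were not particular to it. Hspa5 (0.20 in WT and -0.23 in miR-214-/- mice) and Creld2 (0.58 and -0.32) were among the others, with groups that overlapped. The share of all genes with full separation in opposite directions was not counted. The miR-214-/- sham libraries 2 and 3, highest for Hsp90b1 in their group, also held the most plasma cell reads of that group (8174 and 7499.9 CPM, against 1288 in library 1), and their part was not tested.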

How the results depend on the processing

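In WT, 9 of the 35 ER genes passed, and the count moved with the choices made. It was 14 with DESeq2, 1 when a log2 fold change over 1 was required as well, and 4 to 15 when each of the 6 libraries was left out in turn. With the replicate number as a replicate block it was 8, Sdf2l1 being lost. Correlations of deviations between libraries of the same number ran from -0.616 to 0.247. With 3 libraries a group they can neither show nor exclude a shared batch. The block changed no other count. In miR-214-/- mice DESeq2 called 1 gene in place of 0, and for the interaction it called 3, against 0 to 2 with 1 library left out. The median log2 fold change stayed between 0.21 and 0.33 in WT and between -0.03 and 0.06 in miR-214-/- mice under all settings. With library totals in place of trimmed means, Eif2ak3 in WT changed to 0.013 and Manf in miR-214-/- mice to -0.0013. Leaving out 1 library changed the sign of several values: in WT Syvn1 ranged from -0.012 to 0.13 and Edem1 from -0.071 to 0.065 (also -0.0093 under another setting), and in miR-214-/- mice Pdia6 from -0.028 to 0.11, Canx from -0.045 to 0.069, Sdf2l1 from -0.054 to 0.20, Manf from -0.063 to 0.10, Sec61a1 from -0.029 to 0.031, Ddit3 from -0.046 to 0.18, Dnajc3 from -0.060 to 0.099, Spcs2 from -0.0015 to 0.0998 and Mzb1, at -0.45 with all libraries, from -1.24 to 0.035. The cause of these changes was not tested. Each comparison rests on 3 mice a group, for which an exact permutation test cannot give a two-sided p below 0.1.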
